A study of Mus musculus with 2 samples.

Results

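The genes described here are 10 genes that mark the stroma and the marginal zone of lymphoid organs, namely Tlx1, Nkx2-5, Marco, Siglec1, Cd5l, Madcam1, Vcam1, Spic, Cxcl13 and Ccl21a. They were chosen by name, as every probe set whose annotated gene symbols include one of them, and they make up 17 of the 45037 probe sets of the array that are not array controls. The whole array reads 18193 genes through a probe set of their own. A probe set is a group of short probes read as 1 value. The pancreas lies beside the spleen and close to lymph nodes, so the comparison of these genes asks whether lymphoid tissue was carried along to a different extent in the RNA compared.

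The RNA of the methionine-deficient group came from male C57BL/6J offspring of mothers fed a diet deficient in methionine during pregnancy, and that of the control group from male C57BL/6J offspring of mothers fed control diet. Both groups were weaned at 3 weeks, ate control diet from then on, and were 10 weeks old when pancreatic RNA was taken. Per the labels the offspring had no treatment of their own after birth, and the mothers' diet while suckling is not given in the sources used here. RNA was pooled within each group and each pool was read on 1 array, so n = 1 per group, the spread between mice is not known, and no value below carries a p-value. The number of mice in a pool is not given in the sources used here.

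Lymphoid organs are built by stromal cells. Lymphotoxin from lymphocytes acts on its receptor on these cells and, through the NF-kB family of transcription factors, turns on chemokines and adhesion molecules that draw B cells and T cells into separate zones. In the spleen, the marginal zone lies between these zones and the blood-filtering red pulp, and it holds specialised macrophages that take up particles from blood. The transcription factors that lay down the spleen act in the mesenchyme beside the embryonic pancreas.

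Most of the 10 genes had higher intensities in the methionine-deficient pool, in nearly all probe sets by less than 2 times the noise between probe sets of a gene. Read through the probe set with the highest mean level, 9 of the 10 genes were higher and 1, the scavenger receptor gene Marco, was lower. By the mean over the probe sets of a gene 7 were higher and 3 (Marco, Siglec1 and Spic) lower, and the probe sets of Marco and of Spic disagree too far to give either gene a direction. Of all genes on the array read in the same way, 50.6% were higher. With dim genes counted too, the median log2 difference of the 10 genes was 0.60, against 0.01 over all 18193 genes. Over the 7 genes past the level filter described below it was 0.38, against -7.7e-06 over the 11848 genes past it. Differences are methionine-deficient minus control on the scale log2(intensity + 1), which slightly understates the fold change of dim probe sets. Over all 17 probe sets 13 were higher and 4 lower (median 0.33), while 51.2% of all probe sets were higher and their median was 0.02.

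How firmly a probe set was measured depended on its brightness. A level filter was set at the median level of all probe sets, an intensity of 150.3, and 7 of the 10 genes and 10 of the 17 probe sets lay past it. Marco, Spic and Tlx1 did not. The error printed beside each log2 difference is the probe-set spread, a robust SD between probe sets of 1 gene at like brightness on these 2 arrays. It is not a spread between animals. In the 17 probe sets it ran between 0.31 and 2.21. Of the 10 probe sets past the filter 9 were higher, against 50.8% of all probe sets past it. Of the 9, those of Cd5l and 1 of Vcam1 (1451314_a_at) passed only through their value in the methionine-deficient pool, so these had to be higher. Of the 8 with both pools past it, 7 were higher. The log2 difference was larger than 1 spread in 11 of the 17, against 34.6% of all probe sets, and larger than 2 spreads in 1, against 6.48% of all probe sets.

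Of the 7 genes past the filter, 1 was at least 2-fold higher and none was at least 2-fold lower, against 3.87% and 2.8% of the 11848 genes past it. The 1 gene was Cd5l, which passed the filter through the methionine-deficient pool alone. Without a filter 3 genes were at least 2-fold higher (Tlx1, Cd5l and Spic) and 1 at least 2-fold lower (Marco), against 12.8% and 11% of all genes. The plot of intensities by probe set shows these values for every probe set.

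**Figure D1:**
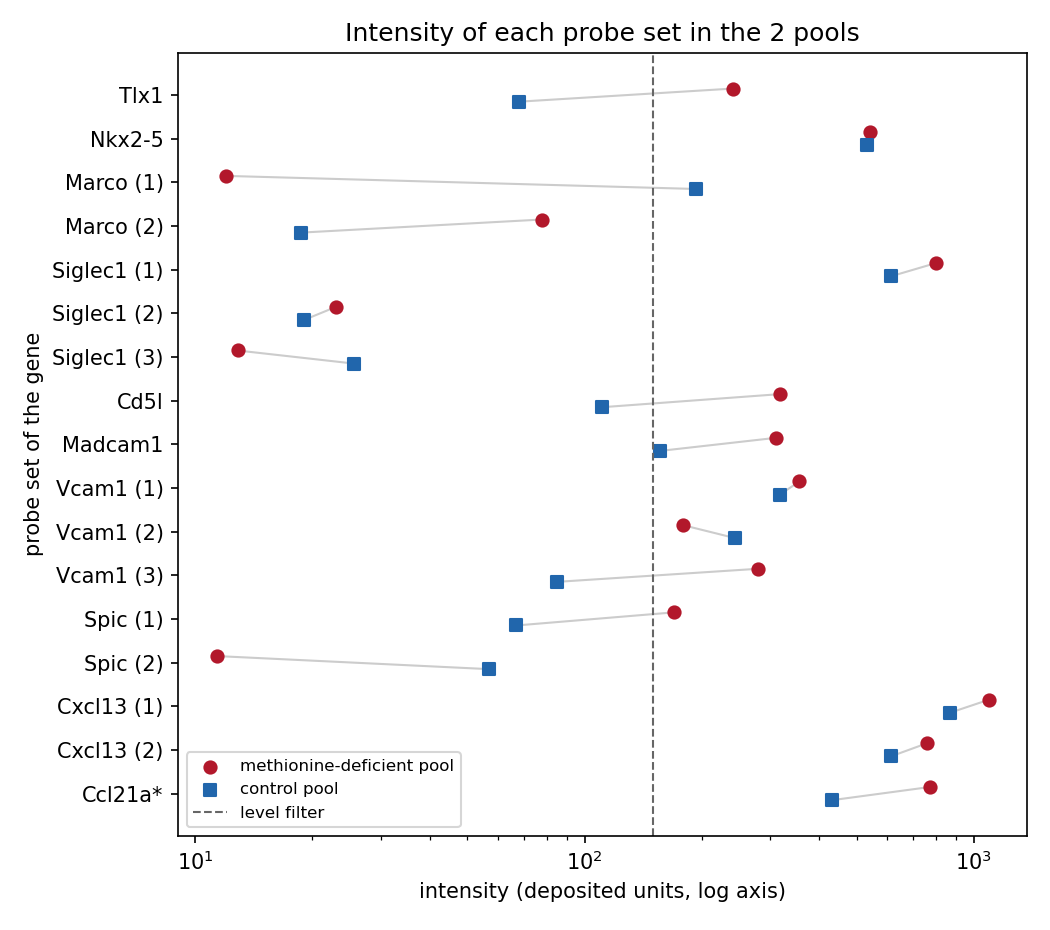
Intensity of the 17 probe sets of the 10 genes, on a log axis, in the methionine-deficient pool (red circles) and the control pool (blue squares), with 1 array each. Numbers in brackets order the probe sets of 1 gene by mean level, the asterisk marks a probe set annotated to 9 gene symbols, and the dashed line is the level filter at 150.3. In 13 of 17 probe sets the red circle lies to the right of the blue square.

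Cxcl13 and Ccl21a encode the chemokines that sort lymphocytes, Cxcl13 by drawing B cells into follicles and Ccl21a by drawing T cells and dendritic cells into T cell zones. Cxcl13 had an intensity of 1094 in the methionine-deficient pool and 868 in the control pool in its brighter probe set (1448859_at). The other Cxcl13 probe set (1417851_at) had 757 in the methionine-deficient pool and 612 in the control pool. Both were higher in the methionine-deficient pool, with log2 differences of 0.33 and 0.31, each about as large as its probe-set spread of 0.31. Cxcl13 was the only one of the 5 members with several probe sets in which all of them went the same way. In bulk RNA such as this, more cells of a type and more RNA per cell cannot be told apart.

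Ccl21a was read through a single probe set (1419426_s_at) annotated to 9 gene symbols, among them the copies Ccl21b, Ccl21c and Ccl21d, so its value belongs to the Ccl21 group and not to Ccl21a alone. Its intensity was 771 in the methionine-deficient pool and 434 in the control pool, a 1.78-fold difference (log2 difference 0.83, probe-set spread 0.46). At 1.79 times its spread it stood further from 0 than the Cxcl13 probe sets did. The receptors of both chemokines, named after their values were seen, were dim in both pools. Ccr7, which binds Ccl21, had 27.3 in the methionine-deficient pool and 35.0 in the control pool, and Cxcr5, which binds Cxcl13, had 17.6 in the methionine-deficient pool and 39.5 in the control pool. Both lay below the level filter. Ccl19, the other Ccr7 ligand, was read only through a probe set shared with copies, at 227 in the methionine-deficient pool and 273 in the control pool (log2 difference -0.27, probe-set spread 0.60).

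Ahead of the start site, some of these copies are nearly identical to Ccl21a. Sequences ahead of the start site, from RefSeq on build GRCm38.p6, were given for Ccl21a and 4 of the 8 other symbols of the probe set. Over the 249 bases compared, Ccl21d differed from Ccl21a at 1 base, and Gm13304 and Gm10591 each differed at 2. The start listed for Ccl21b lies in other sequence, with 32.7% identity at the best ungapped match. The 120 bases below are shown to let the copies be compared, with the base that differs between the pair in capitals. They come from chr4:42773992-42774111 on the minus strand for Ccl21a and from chr4:41903492-41903611 on the plus strand for Ccl21d.
Ccl21a: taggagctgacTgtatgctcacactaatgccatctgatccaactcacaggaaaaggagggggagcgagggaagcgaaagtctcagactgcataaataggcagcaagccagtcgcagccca
Ccl21d: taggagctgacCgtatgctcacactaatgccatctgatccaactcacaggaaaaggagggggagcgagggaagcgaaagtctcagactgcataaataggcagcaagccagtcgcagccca

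Madcam1 and Vcam1 encode adhesion molecules of the immunoglobulin superfamily that hold lymphocytes through integrins. Madcam1, the addressin of gut-associated venules, also lines the marginal sinus of the spleen. Its single probe set (1425253_a_at) had an intensity of 311 in the methionine-deficient pool and 157 in the control pool. The log2 difference of 0.99 was just short of 2-fold and was 1.28 times its probe-set spread of 0.77. The control value was below the median of its array, 165, and the methionine-deficient value above that of its own, 171.

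Vcam1 is made by activated endothelium, by lymphoid stroma and by red pulp macrophages. Its brightest probe set (1415989_at) had 357 in the methionine-deficient pool and 318 in the control pool, a log2 difference of 0.17 that lies within its spread of 0.60. A second (1448162_at) had 179 in the methionine-deficient pool and 244 in the control pool, the opposite direction (log2 difference -0.45, spread 0.77). The third (1451314_a_at) had 280 in the methionine-deficient pool and 85.1 in the control pool, with a log2 difference of 1.71 and the same spread, and it passed the filter only through the methionine-deficient pool. It was the only 1 of the 17 probe sets to differ by more than 2 spreads, against 6.48% of all probe sets. Its mean level, an intensity of 154, lay just above the edge of its level bin at 150.3. In the level bin below, the spread was 1.20, so this standing depends on the bin edge. The 3 probe sets did not share a direction, so no single value describes Vcam1.

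Of the 10 genes, 8 had a window around the start site in the RefSeq table, which holds 250 bases before and 50 bases after each start. These windows were searched, on both strands, for the letters GGAAANTCC, a core that NF-kB proteins are known to bind, since the pathway described above acts through them. The letters occur in 1 of the 8 windows, that of Madcam1, and in at least 1 window of 1.45% of the 27025 genes in the table. A match is a description of letters and not a binding site, and no match says only that these letters are not in the window. The last 120 bases ahead of the start of Madcam1 are shown because they hold the match, which begins at position -70 from the start and is in capitals. They lie at chr10:79664439-79664558 on the plus strand of build GRCm38.p6.
Madcam1: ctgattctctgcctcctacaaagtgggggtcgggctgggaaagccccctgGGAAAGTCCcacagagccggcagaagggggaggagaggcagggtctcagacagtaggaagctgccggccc

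Tlx1 and Nkx2-5 encode homeobox transcription factors of the splenic mesenchyme. Mice that lack Tlx1 form no spleen, and Nkx2-5 is best known from the heart. Tlx1 (1450526_at) had an intensity of 240 in the methionine-deficient pool and 67.9 in the control pool, a 3.50-fold difference (log2 difference 1.81). Its probe-set spread at that level was 1.20, and the gene lay just below the level filter. Among probe sets of the same level bin 39.6% differed by at least 2-fold in either direction. Nkx2-5 (1449566_at), which was bright enough to pass, had 542 in the methionine-deficient pool and 533 in the control pool. Its log2 difference of 0.03 was far within its spread of 0.46.

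**Figure D2:**
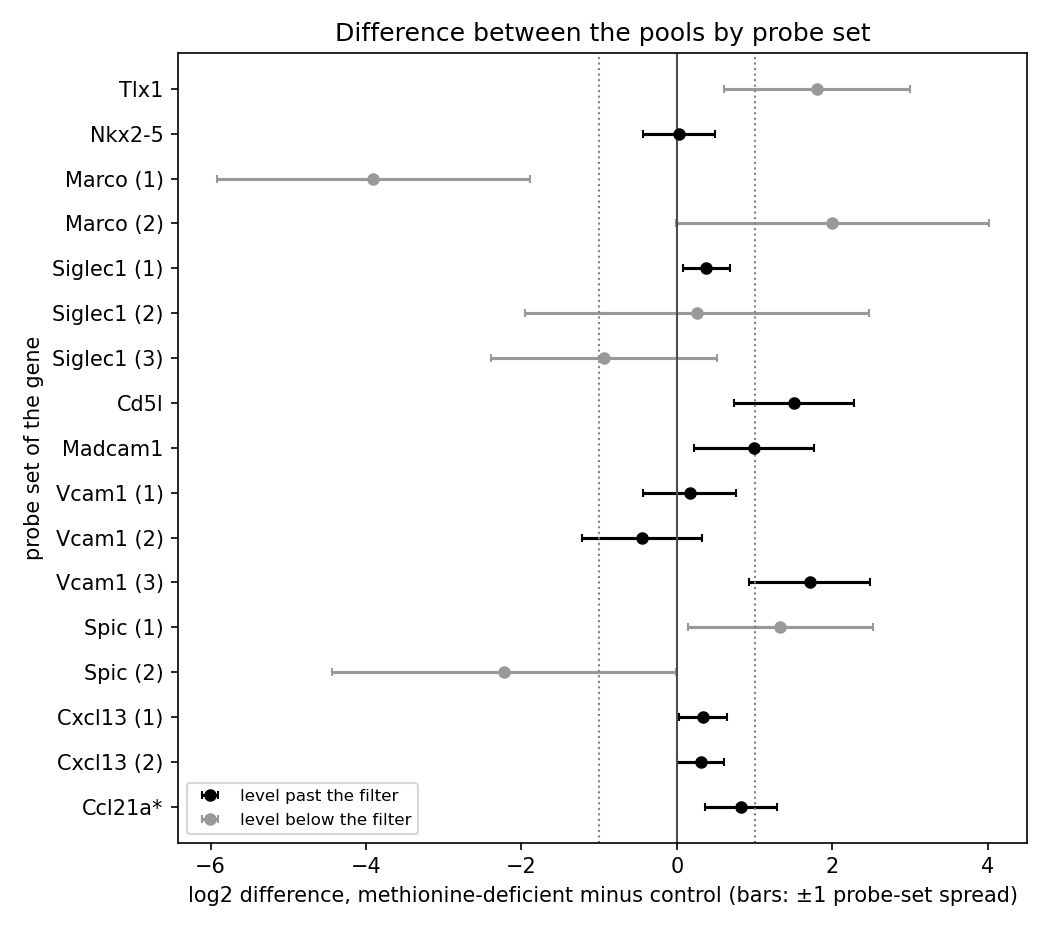
Log2 difference (methionine-deficient minus control, on log2(intensity + 1)) of each of the 17 probe sets, with bars of 1 probe-set spread to either side. Black points lie past the level filter, grey points below it, and dotted lines mark 2-fold. The grey bars, of Tlx1, Marco, Spic and 2 Siglec1 probe sets, are the widest, between 1.20 and 2.21, and the 2 Cxcl13 points lie almost on top of each other at 0.33 and 0.31.

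Marco, Siglec1, Cd5l and Spic are macrophage genes. Marco and Siglec1 encode surface receptors of separate macrophage layers of the marginal zone, a scavenger receptor and a lectin that binds sialic acid. Siglec1 had an intensity of 798 in the methionine-deficient pool and 613 in the control pool in its bright probe set (1427706_a_at), a 1.30-fold difference (log2 difference 0.38, probe-set spread 0.31). The other Siglec1 probe sets were near the floor of the array. One (1422161_at) had 23.0 in the methionine-deficient pool and 19.0 in the control pool, and the other (1427668_at) had 12.8 in the methionine-deficient pool and 25.6 in the control pool. The mean over the 3 probe sets had the opposite sign to the bright one, with a log2 difference of -0.10.

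Marco gave contradictory readings. Its first probe set (1449498_at) had 12.0 in the methionine-deficient pool and 193 in the control pool, a log2 difference of -3.91. Its second (1458297_s_at) had 77.6 in the methionine-deficient pool and 18.7 in the control pool, a log2 difference of 2.0. Of these probe sets, only the second is of a kind that can bind more than 1 transcript. Both lay below the level filter, where the probe-set spread was 2.01, and they stood 5.91 apart on the log2 scale. For genes with 2 probe sets the median distance was 0.83, but this is over all levels and not matched to the low level of Marco. No direction can be given for Marco.

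Spic, an Ets-family transcription factor on which red pulp macrophages depend, behaved in the same way. Its probe set 1418555_x_at had 169 in the methionine-deficient pool and 66.7 in the control pool (log2 difference 1.33, probe-set spread 1.20). Its probe set 1449134_s_at had 11.4 in the methionine-deficient pool and 56.9 in the control pool (log2 difference -2.23, probe-set spread 2.21). Both are of kinds that can bind more than 1 transcript, and both lay below the filter. The probe sets of Spic were 3.56 apart, and no direction can be given for it either.

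Cd5l encodes a protein that tissue macrophages secrete into blood. Its single probe set (1449193_at) had 317 in the methionine-deficient pool and 111 in the control pool, a 2.85-fold difference (log2 difference 1.51, probe-set spread 0.77). The control value was below that array's median and the methionine-deficient value above it. In the level bin of this probe set, 12.8% of all probe sets were at least 2-fold higher.

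Agreement between probe sets of a gene was low for the members as for the array. Of the 5 members with several probe sets, 1 had all of them in the same direction, against 35.2% of the 9010 genes with at least 2. The other 5 members, each with a single probe set, were all higher, but they have no second reading to set beside it. The plot of differences against level shows where the 17 probe sets lie in the cloud of all others.

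**Figure D3:**
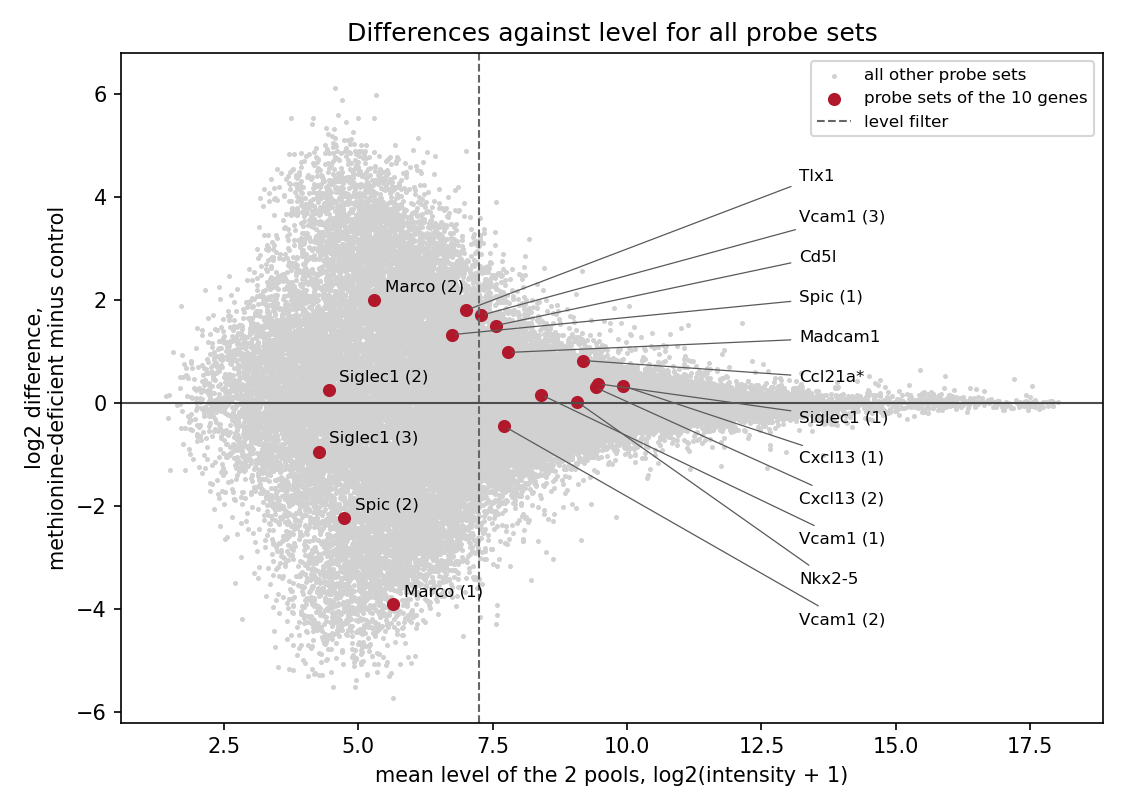
Log2 difference (methionine-deficient minus control) against mean level, log2(intensity + 1), for all probe sets (grey) and the 17 of the 10 genes (red, labelled as in the plot of intensities). The dashed line is the level filter. The cloud is wide at low levels, where Marco, Spic and the dim Siglec1 probe sets lie, and past the filter 9 of the 10 member probe sets lie above 0.

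Other genes of the same cells and signals were set beside the 10 from lists of known members, each gene read through its brightest probe set. Of genes past the filter 50% were higher. In the lymphotoxin and chemokine pathway, 11 of 20 measured genes passed the filter, 6 higher and 5 lower. The median log2 difference was 0.06, and without the filter it was -0.07. The NF-kB subunit gene Nfkb2 was highest at 1.02 (probe-set spread 0.77), and the chemokine scavenger gene Ackr4 lowest at -0.37. Nfkb2 passed the filter only through the methionine-deficient pool, at 255 against 125 in the control pool, so it had to be higher. Of the spleen development regulators 3 of 7 passed, 1 higher and 2 lower, with a median of -0.35. Without the filter 2 were higher and 5 lower (median -0.58). Nkx2-3 had the highest value, 0.72, although its other 2 probe sets were lower, and Barx1 the lowest, -1.02.

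The list of other marginal zone and red pulp macrophage genes had 11 of 14 past the filter, 7 higher and 4 lower, with a median of 0.17. Fcna, which encodes the ficolin A of macrophages, was highest at 1.03 (probe-set spread 0.46). Axl, a receptor for dying cells, was lowest at -0.96 (probe-set spread 0.60), but its other, dimmer probe set gave 4.09. Summed over the 14 genes, intensity was 4579 in the methionine-deficient pool and 4036 in the control pool. The follicular dendritic cell and marginal zone B cell list had 5 higher and 6 lower of 11 past the filter and a median of -0.12. Its highest gene was the Fc receptor gene Fcgr2b at 1.56, whose 5 probe sets lay between -0.36 and 2.15, and its lowest was the complement receptor gene Cr2 at -0.57. Cr2 passed the filter only through the control pool, at 222.6 against 149.4 in the methionine-deficient pool, so it had to be lower.

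Lymphocyte genes, which lymphoid tissue would also bring, had list medians below 0 past the filter and above 0 without it. Of the B cell genes 8 of 13 passed the filter, 3 higher and 5 lower. Their median was -0.18, and 0.20 without the filter. They ranged between Cd22 at 2.15 and Ms4a1, which encodes CD20, at -0.64 with both of its probe sets lower. Cd22 passed the filter only through the methionine-deficient pool, at 365 against 81.3 in the control pool, so it had to be higher. Summed intensity over the 13 was 4612 in the methionine-deficient pool and 4402 in the control pool. Of the T cell genes 8 of 12 passed, 4 higher and 4 lower. Their median was -0.01, and 0.12 without the filter, and single genes lay between Cd8a at 0.53 and Cd4 at -1.73. The 5 Cd8a probe sets lay between -0.77 and 2.49. Cd4 passed the filter only through the control pool, at 381 against 114 in the methionine-deficient pool, so it had to be lower. Summed intensity of the T cell genes was 2813 in the methionine-deficient pool and 2464 in the control pool. No marker of either list was listed at 0, but no detection calls were used, so this does not show that a marker was present. Whether lymphoid tissue had a part in the differences of the 10 genes was not tested.

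Vessel and stromal lists bear on Vcam1, Madcam1 and the Ccl21 group, which endothelium also makes. Among 8 blood endothelial genes past the filter 5 were higher, and the median was 0.22, from Tie1 at -0.54 to Tek at 0.48. Tie1 passed only through the control pool, at 198 against 135 in the methionine-deficient pool, so it had to be lower. Among 4 lymphatic endothelial genes 2 were higher, and the median was 0.16, from Flt4 at -0.27 to Lyve1 at 0.75, a hyaluronan receptor whose 2 probe sets were both higher. The high endothelial venule list kept 3 genes, 2 of them higher, with a median of 0.54, and it ran from Chst2 at -0.23 to Selp at 0.61. Over all its probe sets 4 were higher and 5 lower (median -0.03), and 2 of the 3 Selp probe sets were lower. The summed intensity of the list was 4173 in the methionine-deficient pool and 4482 in the control pool. Most of it was Chst2, at 3441 in the methionine-deficient pool and 4033 in the control pool, with all 3 of its probe sets lower. Read by gene without the filter, 4 of 5 were higher (median 0.54). Genes and probe sets thus differ, and the list has no settled direction. The gene at its median, Chst4, passed only through the methionine-deficient pool, at 211 against 145 in the control pool, so it had to be higher. Among 8 fibroblast genes 5 were higher, and the median was 0.14, from Pdgfra at -1.08 to Pdgfrb at 0.63. Both of these genes have probe sets that go the other way, up to 2.15 for Pdgfra and down to -0.74 for Pdgfrb. Pdgfrb passed only through the methionine-deficient pool, at 221 against 142 in the control pool, so it had to be higher. The medians of these lists were below the log2 differences of Madcam1 (0.99) and the Ccl21 group (0.83). The brightest Vcam1 probe set (0.17) was below the blood endothelial and high endothelial venule medians. A single gene and a list median are unlike measures, and single genes of these lists past the filter reached 0.75 (Lyve1). Below the filter Kdr reached 2.07 (probe-set spread 1.20) and Glycam1 1.48 (probe-set spread 1.85). The other genes below it lay between -0.15 (Vwf) and 0.49 (Prox1). The part of these cell types in the differences was not tested.

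**Figure D4:**
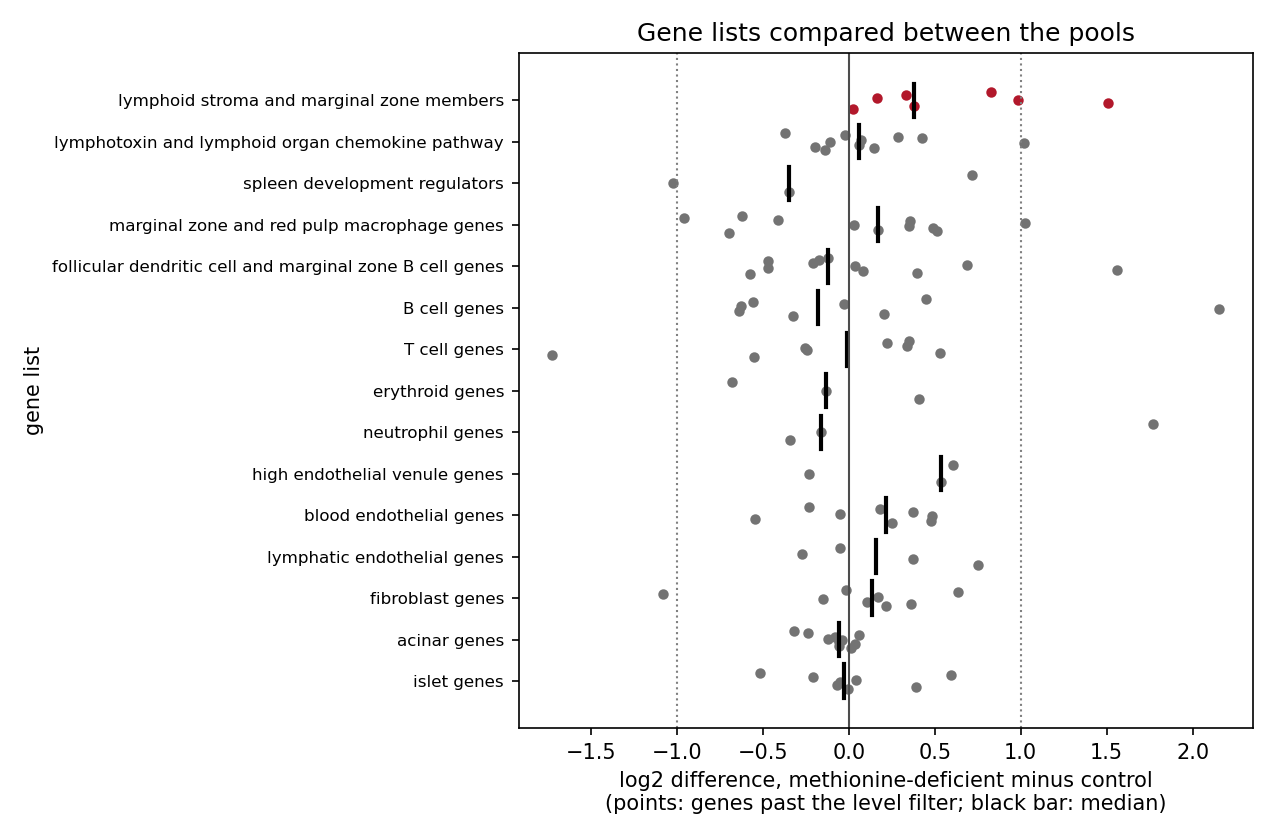
Log2 difference (methionine-deficient minus control) of the genes past the level filter in each list, with a black bar at the median and dotted lines at 2-fold. The 7 of the 10 genes that passed (red) run between 0.03 and 1.51 with a median of 0.38, and the B cell and T cell lists have medians of -0.18 and -0.01.

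The labelled tissue was checked against the defining genes of the pancreas. Acinar genes were among the brightest on both arrays, with a summed intensity over 10 genes of 1397600 in the methionine-deficient pool and 1423590 in the control pool, and a median log2 difference of -0.06, from Ptf1a at -0.32 to Cela3b at 0.06. Islet genes had a median of -0.03, from Slc2a2 at -0.52 to Pdx1 at 0.60.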

How the data were processed

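The deposited values are linear intensities per probe set, 1 column per pool. Per the labels' protocols, Trizol extracts were turned into biotin-labelled cRNA with an Affymetrix 3' IVT kit. How the authors computed, background-corrected and scaled the values is not given in the sources used here. After trimming 2% at each end the mean was 500.003 on both arrays, so a common scaling appears in the deposited intensities. No detection calls were used, so background is not known, and the number of arrays limits the precision.

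Intensities were taken to log2(value + 1) with no further scaling. The array holds 45101 probe sets, of which 64 are array controls. Of the rest, 34945 had 1 gene symbol in the 2016 annotation of the platform (symbols were updated by gene identifier), 932 listed several, and 9160 had no name here. Probe sets with several symbols entered gene counts only for the 10 genes. The probe-set spread was 1.48 times the median absolute difference between level-neighbouring probe sets of 1 gene, divided by the square root of 2, in 10 bins of level. The files hold 1 sample per group, so sizes were counted at 2-fold without a test. The counting was tried on simulated differences well beyond 2-fold in genes past the filter. That trial does not cover differences near 2-fold, genes below the filter or false calls. The 10 genes and the 14 other lists were chosen with earlier results of these data known. Genes named from the other lists are the highest and the lowest past the filter, unless stated otherwise. Python 3.11.15, numpy 2.4.6 and pandas 2.3.3 were used.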

Additional observations from a re-analysis of the deposited data

How the results depend on the processing

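Median centring, quantile normalization and a pseudocount of 16 left each count of the 10 genes within 1.5 times and each median within its probe-set error, although Nkx2-5 turned to -0.03 under median centring. Without a level filter the median log2 difference was 0.60, with 3 genes at least 2-fold higher and 1 lower. With the filter at the 75th percentile 0 of the 4 genes left were at least 2-fold higher, and 5 of 5 probe sets were higher. At a size of 1.5-fold 3 genes were higher, and at 3-fold 0. With the mean over probe sets Siglec1 fell below the filter, and the median was 0.65 over the 6 genes left. Marco stood at -0.95, and 2 genes reversed, Siglec1 to -0.10 and Spic to -0.45. None of these negative genes is among the 6, so the higher median reflects a changed set. Dropping probe sets open to several transcripts removed Ccl21a and Spic, which have no value there. It left Marco with its first probe set alone, at -3.91 and below the level filter. Counting only probe sets past the median filter was added after seeing the data and gave 9 of 10 higher. No replicate could be left out, since each group is 1 array. No paired analysis was possible because each group has 1 sample. Dim probe sets limit Marco, Spic and Tlx1, whose levels lie where background can set the value.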

Other observations

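Red cell and neutrophil genes, which are also found in spleen and blood, had list medians below 0, each over 3 genes past the filter. Of the erythroid genes 3 of 7 measured passed the level filter, 1 higher and 2 lower, and their median log2 difference was -0.13, from Ermap, a red cell membrane protein gene, at -0.68 to Alas2, the erythroid enzyme of haem synthesis, at 0.41. Read without a filter, 1 of the 7 was higher and 6 were lower, where 50.6% of all genes were higher. Among the 6, the single-gene probe set of Hba-a1 was near the floor, at 13.3 in the methionine-deficient pool and 16.9 in the control pool. The alpha and beta globin probe sets, annotated to several genes and singled out after their values were seen, had log2 differences between -0.00076 and 0.19. Of the neutrophil genes 3 of 7 passed, 1 higher and 2 lower, with a median of -0.16, from S100a8 at -0.34 to Elane at 1.77 (probe-set spread 0.60), which passed the filter only through the methionine-deficient pool, at 460 against 134 in the control pool. Without the filter the neutrophil median was -0.07, while the summed intensity of the 7 genes was 1016 in the methionine-deficient pool and 759 in the control pool. Whether spleen or residual blood had a part in the differences was not tested.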
